A study of Mus musculus with 6 samples.

Results

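The genes described here are 32 genes of B cell identity and antigen receptor signalling, followed in whole mammary glands of hepsin-deficient and wild-type mice. They were taken by gene symbol, and all 32 were found among the 55450 genes of the count table. The samples were total RNA of mammary glands from virgin female mice of the FVB background, depleted of ribosomal RNA, and comprised 3 libraries of wild-type (WT) animals and 3 of Hpn-/- animals generated with CRISPR/Cas9. WT replicates 1, 2 and 3 were 2, 6 and 5 weeks old, and Hpn-/- replicates 1, 2 and 3 were 6, 6 and 5 weeks old, so only WT held a 2 week library. Hpn encodes hepsin, a serine protease of epithelial cell membranes, and the labels name no cell type to which its loss was restricted. Nothing in the labels says from which of the glands the RNA came or whether a lymph node was removed.

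B cells recognise antigen through membrane immunoglobulin, which has almost no cytoplasmic tail and signals through the CD79A and CD79B chains. Phosphorylation of these chains engages kinases such as BLK and BTK and the adaptor BLNK, while lectins such as CD22 and Siglec-G raise the threshold for activation. PAX5 holds the identity of the lineage, and the OCT2 protein (Pou2f2) with its coactivator (Pou2af1) acts through the octamer element of B cell promoters. B cells are few in the epithelium and fat of a gland, and in mice the inguinal gland holds a lymph node, a structure rich in B and T cells. In RNA of a whole gland, more cells of a type and more RNA per cell cannot be told apart.

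Promoter windows from RefSeq (GRCm38.p6, from 250 bases before to 50 bases after an annotated start) were found for 26 of the 32 genes, in 31 windows. Matches of 3 motifs were searched on both strands, namely the octamer ATGCAAAT, the box GAGGAAGT of the Ets factors Spi-B and PU.1 and the E-box CAGGTG of E proteins. The octamer was in 2 of the 31 windows (6.45%) against 1.74% of all 32851 windows, in Blnk and Vpreb3. GAGGAAGT was in 4 windows (12.9% against 3.20%), those of Btla, Cd37, Cd72 and Fcrl1. CAGGTG was in 13 windows of 12 genes (41.9% against 20.2%). No matches overlapped each other, and a match describes letters, not binding. The windows of 3 genes are printed 5′ to 3′ with the matches in capitals, Fcrl1 as the member with the largest fold change, Cd79a as a chain of the antigen receptor and Blnk for its octamer. They lie at chr3:87376137-87376436 (plus strand), chr7:24897247-24897546 (plus strand) and chr19:40994172-40994471 (minus strand).
Fcrl1: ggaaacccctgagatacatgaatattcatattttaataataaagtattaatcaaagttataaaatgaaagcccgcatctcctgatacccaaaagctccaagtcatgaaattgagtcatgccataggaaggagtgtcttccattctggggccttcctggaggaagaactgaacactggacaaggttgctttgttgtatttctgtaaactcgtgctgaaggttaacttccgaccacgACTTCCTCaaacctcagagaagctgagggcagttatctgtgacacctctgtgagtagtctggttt
Cd79a: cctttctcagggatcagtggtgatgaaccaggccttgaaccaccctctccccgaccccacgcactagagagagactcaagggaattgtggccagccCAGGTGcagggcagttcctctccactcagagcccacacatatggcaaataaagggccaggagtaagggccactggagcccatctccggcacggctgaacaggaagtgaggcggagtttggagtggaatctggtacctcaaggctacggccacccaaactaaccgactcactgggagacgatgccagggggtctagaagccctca
Blnk: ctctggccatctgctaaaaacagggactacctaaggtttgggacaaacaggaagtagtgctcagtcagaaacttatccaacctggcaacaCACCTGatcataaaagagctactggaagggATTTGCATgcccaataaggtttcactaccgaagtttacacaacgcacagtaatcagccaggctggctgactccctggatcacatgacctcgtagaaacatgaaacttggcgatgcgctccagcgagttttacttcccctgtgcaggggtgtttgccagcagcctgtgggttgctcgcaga

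The 6 libraries held 10971661 to 18807615 counts, of which loci derived from ribosomal RNA took 78.0% to 84.3%, leaving 1798932 to 3071401 counts for other genes. The 32 B cell genes together took 1994, 1720 and 1677 counts of the WT libraries (replicates 1, 2 and 3) and 2659, 2488 and 3040 counts of the Hpn-/- libraries in the same order. The targeted gene Hpn had 12, 6 and 4 counts in WT and 4, 3 and 5 in Hpn-/- libraries, too few to be tested. The labels could thus not be checked by it. The cell type was checked by its defining genes. Ms4a1, Cd79a, Cd79b and Pax5 were detected in every library. Levels below are CPM scaled by TMM (counts brought to a common library size with a correction for composition), in the order of replicates 1, 2 and 3. A positive log2 fold change means a higher value in Hpn-/- glands.

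Most of the B cell genes had higher values in the Hpn-/- glands, and none passed the test over all genes. Mean CPM was higher in Hpn-/- glands for 30 of the 32 genes. The count filter left 30 genes for testing, and 28 of these had a fitted log2 fold change above 0, against 50.9% of all 12520 tested genes. Their median log2 fold change was 0.44, beside 0.00 over all tested genes, and with no count filter it was 0.47 over the 32 genes. In edgeR's quasi-likelihood test 0 of the 30 had an adjusted p under 0.05, against 0.016% of all tested genes, and the lowest adjusted p was 0.30. At an unadjusted p under 0.05 there were 16 members with higher values and 0 with lower ones, whereas 3.98% of all tested genes were higher and 2.90% lower at that level. The lowest Hpn-/- value exceeded the highest WT value for 11 of the 30, against 5.94% of all tested genes, and the reverse held for 0, against 5.04%. DESeq2, run with no count filter on all 32 members, called 0 as well (lowest adjusted p = 0.981), against 0.0317% of its 25242 genes called higher. It had 7 members higher at an unadjusted p under 0.05, against 1.13% of its genes. Those 25242 genes include the scarce ones that the count filter removed, so these shares do not compare directly with those over 12520 genes. Genes of the same cells move together, so these members are not independent of each other. Tnfrsf13c and Fcrla reached the minimum count in 1 and 2 WT libraries, respectively, and passed the filter through the Hpn-/- libraries, so their difference is partly set by the filter. Without them 26 of 28 members were above 0 (median 0.42), 14 had higher values at an unadjusted p under 0.05 and 9 had groups that did not overlap.

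**Figure D1:**
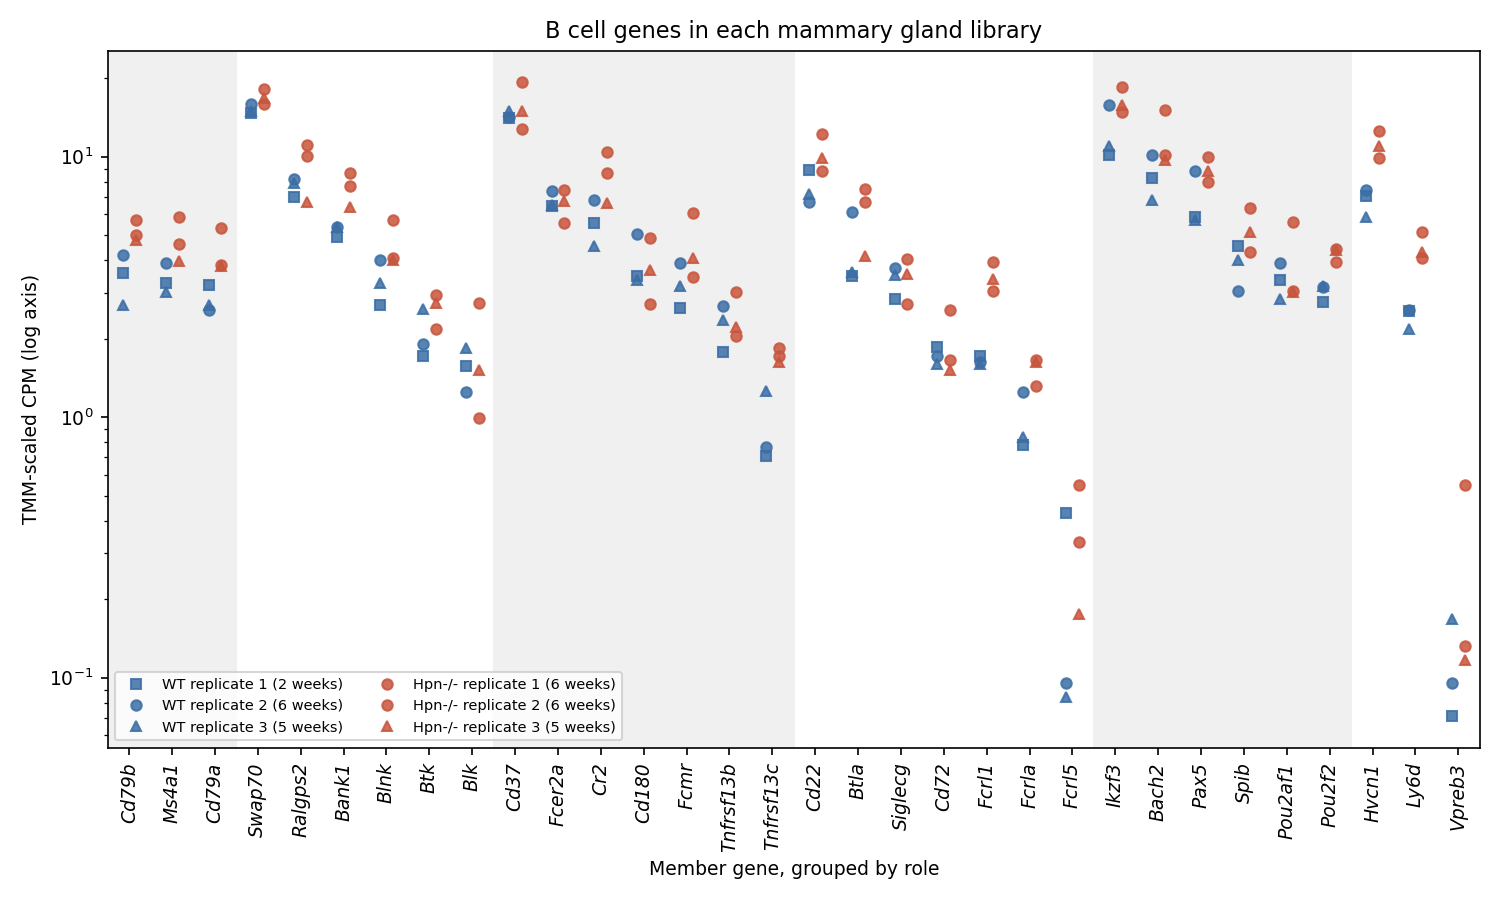
Level of each of the 32 B cell genes (y axis, TMM-scaled CPM on a log axis) in the 3 WT (blue) and 3 Hpn-/- (red) libraries, grouped by role as in the text, with a square for 2 weeks, a triangle for 5 weeks and a circle for 6 weeks. In 27 of the 30 tested genes the highest point is Hpn-/- replicate 2, and for Fcrl1 the WT points lie between 1.59 and 1.71 and the Hpn-/- points between 3.04 and 3.94.

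The antigen receptor chains and CD20 each had every Hpn-/- library above the WT range. Cd79a (ENSMUSG00000003379.7, chromosome 7, 24897381 to 24902197, plus strand), which encodes the Ig-alpha chain, was at 3.20, 2.58 and 2.68 CPM in the WT glands and at 3.83, 5.32 and 3.79 CPM in the Hpn-/- glands. Cd79b, for the Ig-beta chain, was at 3.56, 4.21 and 2.68 CPM in the WT glands and at 5.02, 5.69 and 4.78 CPM in the Hpn-/- glands. Ms4a1, which encodes CD20, a surface protein of mature B cells, was at 3.28, 3.92 and 3.02 CPM against 4.63, 5.87 and 3.96 CPM. For Ms4a1 the gap between the groups was small, with WT replicate 2 next to Hpn-/- replicate 3. The log2 fold changes were 0.58 for Cd79a (SE 0.213), 0.56 for Cd79b (SE 0.200) and 0.49 for Ms4a1 (SE 0.206), and none passed in edgeR (adjusted p of 0.604, 0.569 and 0.655).

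The kinases, adaptors and other cytoplasmic signalling genes had 6 of 6 values above 0 and a median of 0.30 on the log2 scale. Bank1, a scaffold that links the receptor to calcium release, was at 4.91, 5.35 and 5.37 CPM in the WT glands and at 7.73, 8.62 and 6.41 CPM in the Hpn-/- glands (log2 fold change 0.53, SE 0.169, edgeR adjusted p = 0.508). Blnk, the adaptor that couples the kinase SYK to BTK and phospholipase C, was at 2.71, 4.01 and 3.27 CPM against 4.10, 5.69 and 4.02 CPM (0.46, SE 0.215, edgeR adjusted p = 0.718). The groups did not overlap for these genes, though for Blnk WT replicate 2 and Hpn-/- replicate 3 were nearly level. Btk, a Tec family kinase also used by myeloid cells, was at 1.71, 1.91 and 2.6 CPM against 2.18, 2.93 and 2.74 CPM (0.33, SE 0.253). Ralgps2, an exchange factor for the GTPase RalA, was at 6.98, 8.22 and 7.88 CPM against 11.1, 10.1 and 6.70 CPM (0.27, SE 0.182). In Ralgps2 the 5 week Hpn-/- library was the lowest of all 6. Blk, a Src family kinase, was at 1.57, 1.24 and 1.85 CPM against 0.991, 2.75 and 1.52 CPM (0.11, SE 0.350). Hpn-/- libraries thus held both the lowest and the highest Blk value, from 13 to 30 counts per library. Swap70, a lipid-binding activator of Rac that is also used outside B cells, was at 14.7, 16.0 and 14.9 CPM against 15.9, 18.2 and 16.7 CPM (0.15, SE 0.127).

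The co-receptors and receptors for outside signals varied among themselves, with log2 fold changes from -0.09 to 0.91 and 5 of 7 above 0. Tnfrsf13c, which encodes the receptor for the survival factor BAFF, was at 0.712, 0.765 and 1.26 CPM in the WT glands and at 1.72, 1.83 and 1.63 CPM in the Hpn-/- glands (0.91, SE 0.321, edgeR adjusted p = 0.569). These levels stand on 8 to 28 counts per library. Cr2, which in mice encodes complement receptors 1 and 2 of B cells and follicular dendritic cells, was at 5.55, 6.79 and 4.53 CPM against 8.66, 10.4 and 6.64 CPM (0.60, SE 0.195, edgeR adjusted p = 0.512). The groups overlapped because Hpn-/- replicate 3 lay just below WT replicate 2. Fcmr, the Fc receptor for IgM, was at 2.63, 3.92 and 3.19 CPM against 3.44, 6.05 and 4.08 CPM (0.47, SE 0.236). Cd37, a tetraspanin of lymphocytes, was at 14.1, 14.2 and 14.9 CPM against 12.8, 19.3 and 14.98 CPM (0.11, SE 0.151). Tnfrsf13b, which encodes the BAFF and APRIL receptor TACI, was at 1.78, 2.68 and 2.35 CPM against 2.05, 3.03 and 2.21 CPM (0.09, SE 0.258). For Cd37 and Tnfrsf13b, WT and Hpn-/- libraries were interspersed.

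Fcer2a and Cd180 were the tested members with values below 0. Fcer2a, which encodes CD23, the low-affinity IgE receptor of mature follicular B cells, was at 6.48, 7.36 and 6.54 CPM in the WT glands and at 5.55, 7.43 and 6.76 CPM in the Hpn-/- glands (log2 fold change -0.05, SE 0.165, edgeR adjusted p = 0.985). Cd180, a Toll-like receptor homologue of B cells and myeloid cells, was at 3.49, 5.07 and 3.36 CPM against 2.71, 4.86 and 3.67 CPM (-0.09, SE 0.238, edgeR adjusted p = 0.978). Neither set of libraries was separated by genotype. Fcer2a stood on 77 to 116 counts per library, more than Fcrl1 with 17 to 58. The ratio of Fcrl1 to Fcer2a CPM within each library, a pair chosen after its values were seen, was 0.264, 0.221 and 0.244 in WT and 0.548, 0.531 and 0.50 in Hpn-/- glands, while that of Cd79a to Cd79b was 0.900, 0.614 and 1.00 in WT and 0.763, 0.935 and 0.793 in Hpn-/- glands.

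Among the inhibitory and Fc receptor-like molecules Fcrl1 had the largest log2 fold change of the 30 tested members. Fcrl1 (ENSMUSG00000059994.10, chromosome 3, 87376387 to 87402934, plus strand), a surface protein of B cells whose promoter window holds the box GAGGAAGT on the reverse strand, was at 1.71, 1.63 and 1.59 CPM in the WT glands and at 3.04, 3.94 and 3.38 CPM in the Hpn-/- glands. Its log2 fold change was 1.06 (SE 0.234, edgeR adjusted p = 0.302), with every Hpn-/- library well above every WT library. Fcrla, an intracellular relative that binds immunoglobulin in the endoplasmic reticulum, was at 0.783, 1.24 and 0.839 CPM against 1.32, 1.65 and 1.63 CPM (0.70, SE 0.323, edgeR adjusted p = 0.714), on 10 to 28 counts per library. Cd22, a sialic acid-binding inhibitor of receptor signalling, was at 8.90, 6.69 and 7.21 CPM against 8.79, 12.2 and 9.91 CPM (0.42, SE 0.166). For Cd22 the groups overlapped only in the close values of WT replicate 1 and Hpn-/- replicate 1. Btla, an inhibitory receptor of B and T cells, was at 3.49, 6.12 and 3.61 CPM against 6.67, 7.52 and 4.14 CPM (0.47, SE 0.261). Cd72, an inhibitory lectin, was at 1.85, 1.72 and 1.59 CPM against 1.65, 2.57 and 1.52 CPM (0.11, SE 0.284). Siglecg, which encodes Siglec-G, was at 2.85, 3.73 and 3.52 CPM against 2.71, 4.03 and 3.56 CPM (0.03, SE 0.217), with both genotypes over the same range. Fcrl5 was not tested, at 6, 1 and 1 counts in WT and 5, 6 and 3 counts in Hpn-/- libraries.

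The transcription factors had 6 of 6 values above 0, with log2 fold changes from 0.17 to 0.49. Pou2f2 was at 2.78, 3.15 and 3.19 CPM in the WT glands and at 4.43, 3.94 and 4.37 CPM in the Hpn-/- glands (0.49, SE 0.192, edgeR adjusted p = 0.635), the one factor of the 6 whose groups did not overlap. Its coactivator gene Pou2af1 was at 3.35, 3.92 and 2.85 CPM against 3.04, 5.59 and 3.03 CPM (0.17, SE 0.251), where Hpn-/- replicate 2 alone lay above the WT range. Pax5 was at 5.84, 8.79 and 5.70 CPM against 8.0, 9.99 and 8.80 CPM (0.40, SE 0.179, edgeR adjusted p = 0.680). In Pax5 the 6 week WT replicate 2 lay among the Hpn-/- libraries. Spib, for the Ets factor Spi-B of B cells and plasmacytoid dendritic cells, was at 4.56, 3.06 and 4.03 CPM against 4.30, 6.33 and 5.13 CPM (0.41, SE 0.206). Bach2, a repressor that restrains plasma cell formation and is also used by T cells, was at 8.26, 10.1 and 6.79 CPM against 10.2, 15.1 and 9.67 CPM (0.46, SE 0.191). Ikzf3, which encodes Aiolos of B, T and NK cells, was at 10.1, 15.8 and 11.0 CPM against 14.8, 18.4 and 15.8 CPM (0.41, SE 0.166). Bach2 and Ikzf3, like Pax5, had their highest WT value in WT replicate 2.

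The remaining lineage genes held 2 of the 3 members with the smallest p. Hvcn1 (ENSMUSG00000064267.13, chromosome 5, 122206804 to 122242297, plus strand), a voltage-gated proton channel that supports receptor signalling and is also used by granulocytes, was at 7.05, 7.46 and 5.87 CPM in the WT glands and at 9.91, 12.6 and 11.0 CPM in the Hpn-/- glands (log2 fold change 0.71, SE 0.156, edgeR adjusted p = 0.30). Ly6d (ENSMUSG00000034634.7, chromosome 15, 74762056 to 74763620, minus strand), a surface antigen that in mice marks lymphoid progenitors committed to the B lineage and is also made by stratified epithelium, was at 2.56, 2.58 and 2.18 CPM against 4.10, 5.14 and 4.31 CPM (0.87, SE 0.204, edgeR adjusted p = 0.367). In both genes every Hpn-/- library lay above every WT library. Vpreb3, which accompanies the early antigen receptor, had 1, 1 and 2 counts in WT and 2, 6 and 2 in Hpn-/- libraries and was not tested. Of the 3563 exonic bases of Hvcn1, 1574 overlap exons of Tctn1 on the opposite strand, so reads there are uncertain. Tctn1 itself was at 3.78 ± 0.560 CPM in the WT glands and at 4.26 ± 0.488 CPM in the Hpn-/- glands (SD, n = 3 each, log2 fold change 0.18). Bach2, Cd22, Cd37, Cd72, Cd180, Pax5 and Swap70 also share exonic bases with a gene on the opposite strand, and Pou2f2 with a microRNA gene on its own strand. The extent differed, from 13 bases in Cd37 to 1423 of the 3422 bases of Cd72, shared with Tesk1. Tesk1 was at 10.4 ± 1.62 CPM in the WT glands and at 9.43 ± 1.12 CPM in the Hpn-/- glands (log2 fold change -0.14). Reads of Cd72 in that overlap are thus uncertain too. Of the 21 tested members with no such overlap, 20 had values above 0, against 50.9% of all tested genes, and 11 of them an unadjusted p under 0.05, against 3.98%. Both counts include Tnfrsf13c and Fcrla, which passed the filter through the Hpn-/- libraries.

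**Figure D2:**
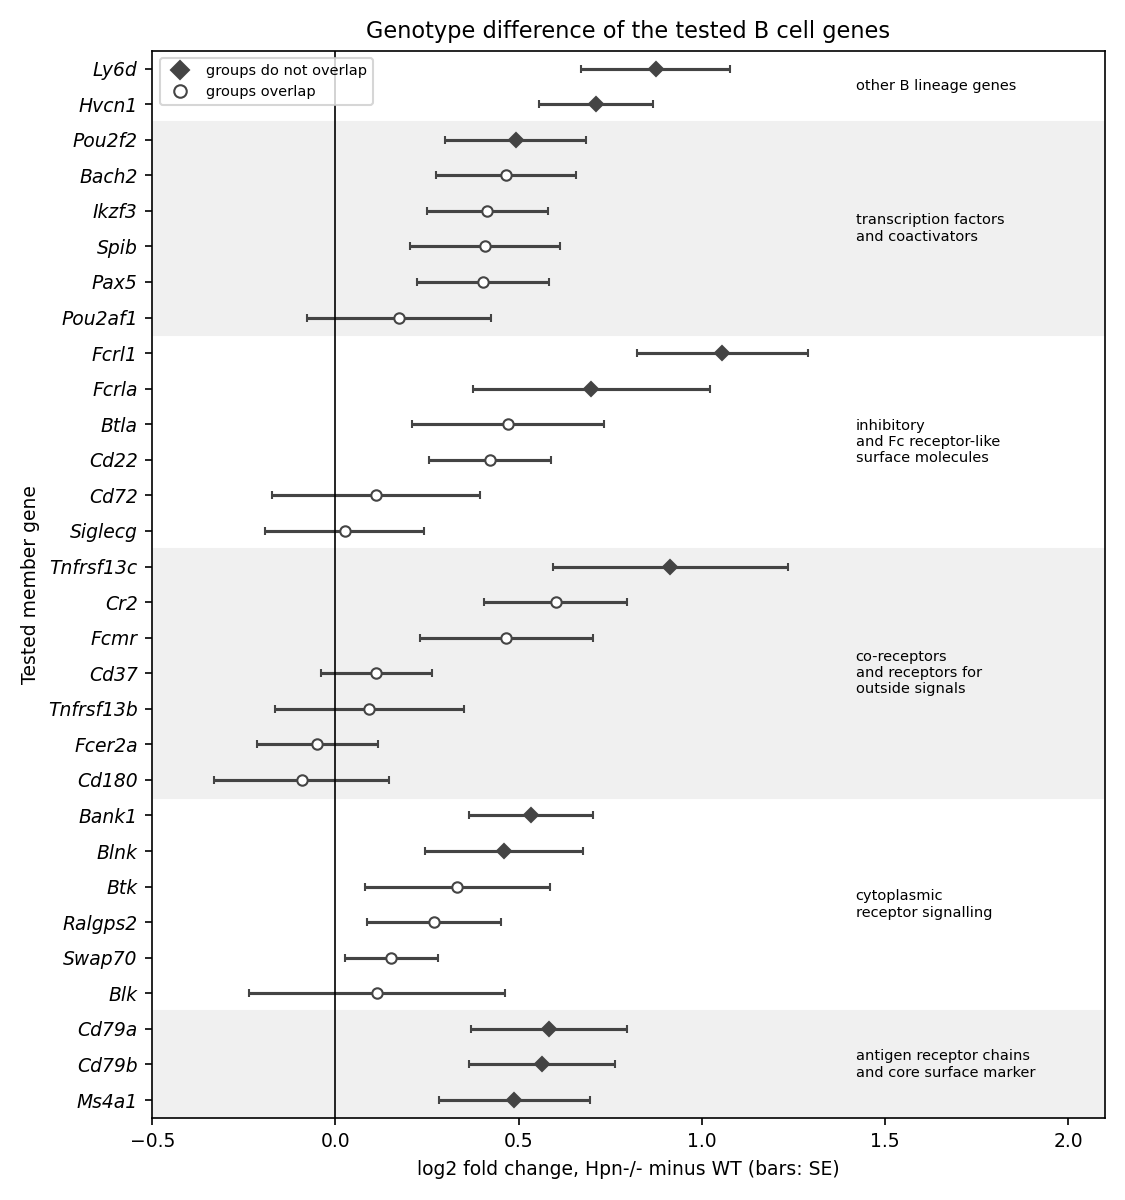
Fitted log2 fold change of the 30 tested B cell genes (x axis, Hpn-/- minus WT, bars are the standard error), ordered within role, with filled diamonds where no Hpn-/- library overlapped the WT range and open circles where the groups overlapped. Values run from -0.09 for Cd180 to 1.06 for Fcrl1, and 11 genes have filled diamonds.

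Levels per kilobase of merged exons put Cd37 first in WT, at 4.09 CPM per kilobase, followed by Ly6d at 3.28, Cd79b at 2.43 and Fcer2a at 2.20. In Hpn-/- glands Ly6d was first at 6.07 CPM per kilobase, followed by Cd37 at 4.45, Cd79b at 3.61 and Hvcn1 at 3.13. The lowest tested member in WT was Pou2f2 at 0.369 CPM per kilobase, just below Tnfrsf13c at 0.445 and Fcrl1 at 0.461. The genes with the largest fold changes included both a highly and a scarcely represented transcript on this scale.

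A split by where the genes are known to be used gave similar values on both sides. Of 16 members used mainly by the B lineage 14 were tested, with 13 above 0 and a median log2 fold change of 0.48, or 0.44 without Tnfrsf13c and Fcrla. Of 16 members known also in other cells all were tested, with 15 above 0 and a median of 0.41. Summed over the 16 mainly B lineage genes, the level was 49.2, 54.5 and 47.4 CPM in the WT glands and 59.6, 81.1 and 62.2 CPM in the Hpn-/- glands. The sum over the 16 others was 92.8, 110 and 93.3 CPM against 116, 147 and 115 CPM. Both sums were thus highest in Hpn-/- replicate 2 and put the 6 week WT replicate 2 highest among WT.

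Age was not balanced, and the members were therefore also read within each age. Among the 6 week libraries both Hpn-/- replicates exceeded WT replicate 2 in 18 of the 30 tested members, against 32.7% of all tested genes. In the 5 week libraries Hpn-/- replicate 3 exceeded WT replicate 3 in 26 of 30, against 49.9% of all tested genes. These pairs share no library. The mean of the 6 week Hpn-/- libraries and the 5 week Hpn-/- library were both above the WT library of their age in 23 of 30 members, against 27.1% of all tested genes. The median difference was 0.31 at 6 weeks and 0.34 at 5 weeks (log2 of CPM + 0.1), beside 0.00 at each age over all tested genes. Fcrl1 differed by 1.05 at 6 weeks and 1.04 at 5 weeks, Ly6d by 0.81 and 0.95, and Hvcn1 by 0.58 and 0.90. Pax5 and Ikzf3 differed by 0.02 and 0.07 at 6 weeks and by 0.62 and 0.52 at 5 weeks, and Blk by 0.39 and -0.27. Each age holds 1 WT library. An interaction of genotype and age, fitted with edgeR to the 5 and 6 week libraries with 1 residual degree of freedom, gave 0 of 30 members at an adjusted p under 0.05 (lowest adjusted p = 1) and 0 at an unadjusted p under 0.05, against 2.41% of all tested genes. For Pax5 the difference at 6 weeks minus that at 5 weeks was -0.60 (log2, SE 0.402), and this design is too small to show that the ages are alike.

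**Figure D3:**
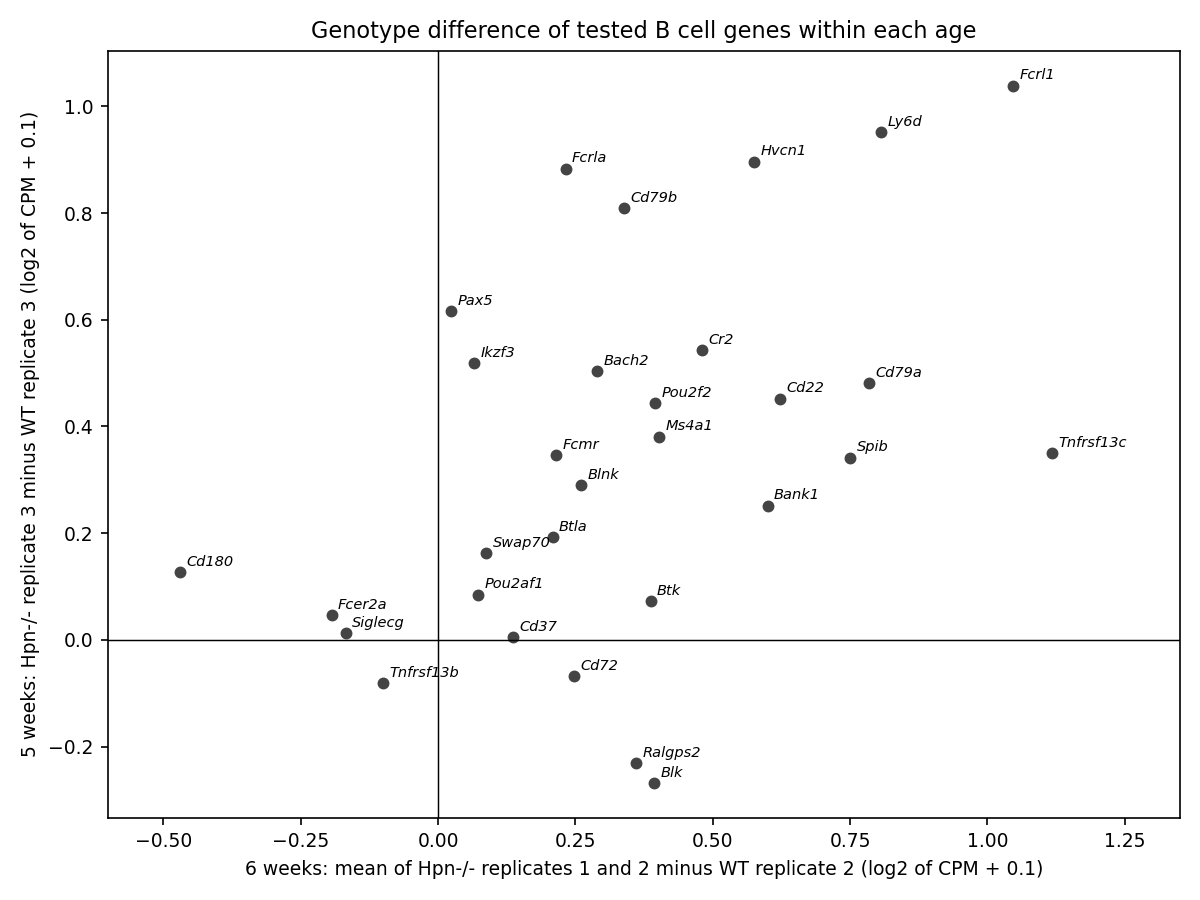
Difference between Hpn-/- and WT libraries for each of the 30 tested B cell genes within the 6 week libraries (x axis, mean of 2 Hpn-/- libraries minus 1 WT library) and within the 5 week libraries (y axis, 1 library each), in log2 of CPM + 0.1. The upper right quadrant holds 23 genes with Fcrl1 farthest out, and Cd180, Fcer2a, Siglecg and Tnfrsf13b lie left of 0.

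Within WT the members also varied. They were lower in the 2 week WT replicate 1 than in the 6 week WT replicate 2 in all but 6 of 30 (median log2 difference -0.20), and close to the 5 week WT replicate 3 (higher in 14 of 30, median -0.02). Of all 30 tested members the lowest library was WT replicate 1 in 11, WT replicate 3 in 9, Hpn-/- replicate 1 in 5, WT replicate 2 in 3 and Hpn-/- replicate 3 in 2. Hpn-/- replicate 2 was the highest library in 27. Without it the median log2 fold change was 0.29, with 22 of 30 values above 0, and 8 members had higher values at an unadjusted p under 0.05, against 2.08% of all tested genes. The count of 16 at that level was also smaller without WT replicate 1 (9 members, against 2.64%), without WT replicate 3 (8, against 2.52%) and in the 5 and 6 week libraries with age as a covariate (9, against 3.19%). In that fit with age the median log2 fold change was 0.28, with 26 of 30 values above 0. Without Hpn-/- replicate 3, which leaves only 6 week libraries in that group, 3 members passed over all genes in edgeR, namely Hvcn1 (log2 fold change 0.71, adjusted p = 0.0387), Cr2 (0.76, adjusted p = 0.0434) and Fcrl1 (1.06, adjusted p = 0.0479), against 0.689% of all tested genes called higher. With no count filter Fcrl1, Hvcn1 and Ly6d passed, against 0.301% called higher of the 25242 genes in that fit, which include the scarce ones.

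Other genes of the receptor pathway and of B cell stages were read from lists. Of 25 further genes of B cell receptor signalling, all tested, 19 were higher and 6 lower in Hpn-/- glands (median log2 fold change 0.18), and 0 passed in edgeR while 7 were higher at an unadjusted p under 0.05, against 3.98% of all tested genes. Cd81, a tetraspanin that many other cells also make and the most abundant of them, was at 42.9 ± 4.35 CPM in the WT glands and at 39.1 ± 3.48 CPM in the Hpn-/- glands (SD, n = 3 each, log2 fold change -0.14). Immunoglobulin chain genes had 6 of 6 tested values above 0 (median 0.34), or 4 of 4 without Ighg3 and Iglc2, which reached the minimum count in fewer than 3 WT libraries, with Ighm, for the IgM heavy chain, at 27.1 ± 1.45 against 34.3 ± 6.15 CPM (0.34) and Ighd, for IgD, at 14.0 ± 1.07 against 18.0 ± 3.49 CPM (0.35). Plasma cell genes went both ways (2 higher and 2 lower of 4 tested), with Sdc1, which epithelium also makes, at -0.47 and Xbp1 at -0.16. Of 7 germinal centre genes the 2 tested were lower, S1pr2 at -0.32 and Bcl6 at -0.35. Among pro-B and pre-B genes Rag1, Rag2 and Vpreb2 had no count in any library, and the 2 tested ones, which other cells also use, were Ebf1 at 0.15 and Il7r at 1.13. None of these list members passed in edgeR.

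Gene lists of other lymphoid and antigen-presenting cells had mostly positive values, and 0 of their genes passed in edgeR. At an unadjusted p under 0.05, 10 T and NK cell markers, 7 MHC class II genes and 4 genes that attract or sustain B cells were higher, against 3.98% of all tested genes. H2-Eb1 and Tnfrsf13c reached the minimum count in 1 WT library each. Without them the MHC class II count was 6 and that of genes that attract or sustain B cells 3. Tnfrsf13c is also one of the B cell members. T and NK cell markers were higher in 16 of 17 tested (median log2 fold change 0.42), with summed levels of 121 to 149 CPM in the WT glands and 154 to 199 CPM in Hpn-/- libraries. Thy1, the most abundant of them and also made by stromal cells, had a log2 fold change of -0.12. The summed level of the 16 mainly B lineage genes relative to that of the T and NK markers was 0.396, 0.365 and 0.391 in WT and 0.386, 0.407 and 0.392 in Hpn-/- glands, and that of the immunoglobulin chains relative to the B lineage genes was 1.02, 0.951 and 1.11 against 1.01, 1.01 and 0.933. These ratios thus overlapped between the genotypes. MHC class II genes, which B cells share with other antigen-presenting cells, were higher in 8 of 8 (median 0.47), or 7 of 7 (median 0.45) without H2-Eb1, which reached the minimum count in 1 WT library, with summed levels of 147 to 168 against 184 to 263 CPM. Their most abundant member Cd74 was at 0.45 and H2-Aa at 0.53. Genes that attract B cells or keep them alive were higher in 8 of 8 tested (median 0.52, or 0.51 without Tnfrsf13c), with sums of 53.5 to 67.8 against 68.7 to 106 CPM and S1pr1, the most abundant, at 0.23. The part of other lymphoid cells in the B cell differences was not tested.

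Ccl21a and Cxcl13, read here as lymph node markers, were detected in every library. Their detection does not by itself show that a gland sample held lymph node tissue. Ccl21a, a chemokine of lymph node stroma, had 24 to 44 counts per WT library and 38 to 66 per Hpn-/- library (log2 fold change 0.42), and Cxcl13, the chemokine that draws B cells into follicles, 20 to 36 and 38 to 47 (0.43). Madcam1, a venule adhesion molecule, had 2 to 5 and 0 to 3 counts, Ccl19 3 to 9 and 2 to 10, and Fut7 8 to 11 and 6 to 13. Madcam1, Ccl19 and Fut7 were not tested, and the mean CPM of each was lower in Hpn-/- glands. Stroma and high endothelial venule markers were higher in 6 of 8 tested (median 0.12), or 5 of 7 (median 0.11) without Chst4. Chst4 reached the minimum count in 2 WT libraries. Sums over all these markers were 86.0 to 96.9 CPM in the WT glands and 91.5 to 109 CPM in Hpn-/- libraries. Glycam1, the most abundant of them, which venules of lymph nodes and also mammary epithelium make, was at 42.2 ± 2.68 against 51.6 ± 7.76 CPM (SD, n = 3 each, log2 fold change 0.29). The tested markers with lower values were Pdpn at -0.54 and Ltbr at -0.20. Of follicular dendritic cell markers, 5 of 5 tested were higher (median 0.43, Cr2 and Cxcl13 included, sums of 93.4 to 99.8 against 107 to 126 CPM). Mfge8, which epithelium also makes, was at 0.18. Most of these sums came from Mfge8 (44.3 CPM in the WT glands and 50.2 CPM in the Hpn-/- glands) and Clu (43.2 and 51.1 CPM). Fcamr, also on that list, was not tested, and its mean CPM was lower in Hpn-/- glands (0.0441 against 0.107). How much lymph node each gland sample held was not measured, and its part in the result was not tested.

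Lists of other cells did not all follow. Macrophage and monocyte markers were higher in 4 of 12 (median -0.07, sums of 178 to 221 against 184 to 240 CPM), although Lyz2, their most abundant member, was at 0.64 (edgeR adjusted p = 0.440). Plasmacytoid dendritic cell markers were higher in 4 of 5 (median 0.23, sums of 66.0 to 81.7 against 69.0 to 71.9 CPM), with Ccr9, which T cells also use, at 1.00 and Tcf4 at -0.23. Epithelial markers were higher in 8 of 11 tested (median 0.25, sums of 68.3 to 85.9 against 68.4 to 101 CPM), with Krt8 at -0.49 and Esr1 at 0.21. Without Krt5 and Krt14, which reached the minimum count in fewer than 3 WT libraries, 6 of 9 were higher (median 0.24). Adipocyte markers were at a median of 0.06 (5 of 8 higher, sums of 1212 to 1417 against 1336 to 1436 CPM, Retn at 0.73 and Fabp4 at 0.05) and endothelial markers at -0.04 (2 of 8 higher, sums of 186 to 211 against 169 to 217 CPM, Cdh5 at -0.27). Fibroblast markers were lower in 6 of 8 (median -0.25, sums of 2705 to 3715 against 1941 to 2979 CPM, Col1a2 at -0.53 and Col3a1 at -0.50). Skeletal muscle markers were higher in 8 of 10 (median 0.63), with Myh2 at -1.79 (SE 1.24) and Myh4 at 0.70 (SE 1.71). Their sums varied most between libraries, from 47.7 to 623 CPM in the WT glands and from 14.3 to 956 CPM in Hpn-/- libraries. Erythrocyte markers were at a median of 0.07 (2 of 3 tested higher, sums of 22.3 to 34.2 against 23.2 to 38.1 CPM, Hba-a1 at 0.09 and Hbb-bs at 0.07, with Hba-a2 at 0 counts). Without Alas2, which reached the minimum count in 2 WT libraries, 2 of 2 were higher (median 0.08). None of these genes passed in edgeR, and the part of these cells in the B cell differences was not tested.

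**Figure D4:**
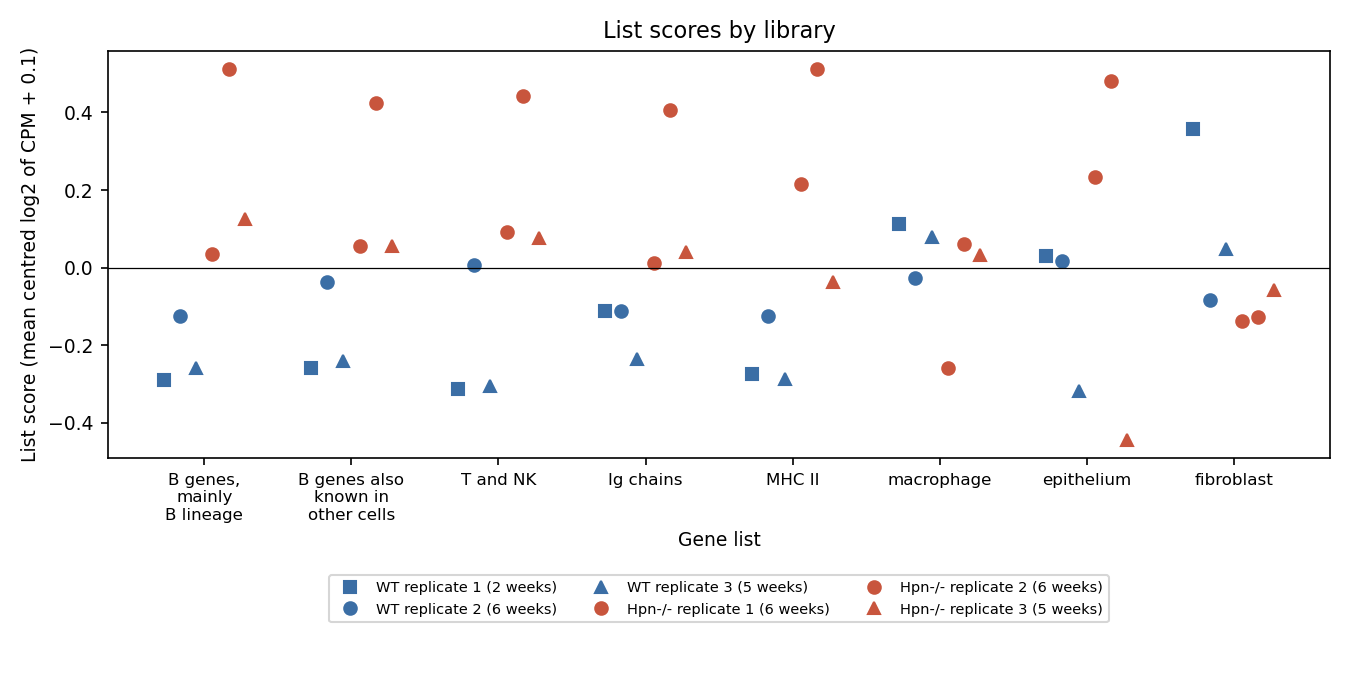
List score (y axis, mean over tested genes of log2 of CPM + 0.1 centred on each gene's mean) in each WT (blue) and Hpn-/- (red) library, with a square for 2 weeks, a triangle for 5 weeks and a circle for 6 weeks. The mainly B lineage score runs from -0.29 to -0.12 in WT and from 0.03 to 0.51 in Hpn-/- libraries. Hpn-/- replicate 2 is highest for the lymphoid lists and also for the epithelial list (0.48). The macrophage and epithelial scores overlap between the genotypes.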

How the data were processed

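The members and gene lists were chosen with earlier results of these data known. The deposited table holds raw counts of reads per gene. Per the submitters' processing notes, STAR 2.6.0c and featureCounts were used on GRCm38, beside bcl2fastq, Trimmomatic and DESeq2. Strand setting and annotation: not given in the sources used here. Per the labels' protocols the kit marks the strand. All 55450 identifiers matched GENCODE M21, the source of symbols, exon lengths and overlaps. Titles gave each library's genotype and number. Each title carries its own identifier and the WT libraries differ in age, but no label states that each library came from another animal. The p-values rest on library-to-library spread, which may be partly technical. Libraries of a group differed by more than sampling noise (chi-square of 6.72 to 32.1 for each degree of freedom).

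edgeR 4.0.16 in R 4.3.3 was run on the counts with filterByExpr (minimum count 10, minimum total 15), TMM factors (0.914 to 1.24) and a robust quasi-likelihood fit of genotype on the whole table. Two-sided p-values were adjusted by Benjamini-Hochberg over 12520 genes and called under 0.05. The standard error is the log2 fold change divided by the root of the F statistic. The test was checked on simulated data. Alternatives were DESeq2 1.42.0, RLE scaling, other count filters, a replicate block, age as a covariate, leaving out ribosomal RNA loci and leaving out each library. The interaction of genotype and age, and counts without genes that reached the minimum in fewer than 3 WT libraries, were added after seeing the data. Values in every library are given for all tested members. Of each list, the most abundant gene and that of smallest p are named, except for a few genes that are not reported here.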

Additional observations from a re-analysis of the deposited data

How the results depend on the processing

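The number of B cell genes called was 3 with no count filter (Fcrl1, Hvcn1 and Ly6d at edgeR adjusted p of 0.0244, 0.00925 and 0.0375). In that fit the prior degrees of freedom had an infinite median, so a common trend replaced most genes' own spread. The number was 0 to 3 when single libraries were left out, 3 only without Hpn-/- replicate 3. It was 0 under RLE scaling, DESeq2, the filter of 1 CPM in 3 libraries, age as a covariate and without ribosomal RNA loci. When single libraries were left out, the median log2 fold change was 0.29 to 0.54 and the number of higher members 22 to 30. With the replicate number as a block the median was 0.44, 28 members were higher and 0 were called. Same-numbered libraries deviated with correlations of 0.168, 0.0728 and 0.367. WT replicates 1 and 3 correlated best with the Hpn-/- library of their own number, but WT replicate 2 with Hpn-/- replicate 1 (0.126). The match was thus not complete, and the numbers are not taken as pairs. Members near 0 changed sign, most of them without Hpn-/- replicate 2 (6 members, namely Blk, Cd37, Cd72, Pou2af1, Siglecg and Tnfrsf13b). With age as a covariate Siglecg was at -0.089 and Tnfrsf13b at -0.098. Leaving out single libraries gave -0.091 to 0.16 for Siglecg, -0.073 to 0.22 for Tnfrsf13b, -0.30 to 0.38 for Blk, -0.056 to 0.23 for Cd37, -0.13 to 0.25 for Cd72, -0.15 to 0.32 for Pou2af1, -0.14 to 0.047 for Fcer2a and -0.30 to 0.11 for Cd180. The cause of these changes was not tested. Blk, Tnfrsf13c and Fcrla had 8 to 30 counts per library, and depth limits their precision. Of these only Blk changed sign, and Cd37, which also did, had 149 to 257 counts.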
